A study of Mus musculus with 9 samples.

Results

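Cd4, Cd8a, Cd8b1, Cd3e, Cd3d and Cd3g encode the coreceptors of the T-cell receptor and the invariant chains through which it signals. CTCF and Rad21 (a subunit of cohesin) peaks were taken at these 6 of 22380 annotated protein-coding genes, as every deposited peak that overlapped the mm9 body of a gene or the 60 kb on either side of it. Overlapping stretches were joined, which gave 3 windows: Cd4 (chr6:124754710-124898239, 144 kb), Cd8b1 with Cd8a (chr6:71212830-71389165, 176 kb) and Cd3g, Cd3d and Cd3e (chr9:44717655-44877673, 160 kb). They held 163 of the 190262 peaks in the 5 lists.

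The cells profiled by ChIP-seq were B and T cell precursors of C57BL/6 mice that lack Rag1 and so do not rearrange their own antigen receptor genes. CTCF was profiled in IL7-cultured pro-B cells, which are selected B-lineage bone marrow cells of RAG1-/- mice grown for 7 days with IL7 from the supernatant of transfected J558 cells. CTCF and Rad21 were profiled in pre-B cells, taken from the bone marrow of RAG-/- mice that carry a rearranged IgM transgene, with 1 input shared by both. Bone marrow came from mice of 6 to 14 weeks of both sexes. Rad21 was profiled in DN thymocytes, which are the whole thymus of Rag1-/- mice, and in DP thymocytes, from Rag1-/- mice with a rearranged TCR beta transgene. Thymi came from mice of 4 to 8 weeks. The pre-B and DP cells thus owe their stage to a transgene and the pro-B cells were cultured. Each condition had 1 library, so no difference between cell types could be tested, and expression was not measured, so the cell labels could not be set against the levels of these genes. CTCF in thymocytes was not analysed here, and a DP or DN Rad21 peak is described below by whether it overlapped a CTCF peak of either B-lineage library (B-lineage CTCF).

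CTCF binds a directional motif of DNA and holds loop-extruding cohesin where it is bound, so that loops tend to form between sites that face each other. Cohesin is also found at active enhancers and promoters without CTCF. DN thymocytes express neither coreceptor, DP thymocytes express both, and the Cd3 chains are made throughout the T lineage. Cd4 is known to be kept off by a silencer within its first intron, which is bound by Runx factors, and to be turned on by an enhancer upstream of its start. The Cd8 genes are known for a group of enhancers upstream of and around Cd8a, used at different stages of T-cell development. The positions of these elements are not in the files used here, so peaks are placed by intron and interval only.

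The sequences that carry the CTCF sites at and near the borders of the 3 loci are shown first, because their direction bears on which sites face each other. Each is 40 bases of mm9 read on the strand of the match, and the capitals mark the 12 bases that matched the consensus found de novo by HOMER with at most 2 mismatches. The first 6 sites held a peak in all 5 libraries.
Cd8 lower border (within Smyd1), chr6:71248927-71248966, minus strand: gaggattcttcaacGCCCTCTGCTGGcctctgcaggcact
Cd8 upper border (Rmnd5a intron 4), chr6:71349367-71349406, plus strand: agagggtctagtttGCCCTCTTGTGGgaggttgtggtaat
Cd4 lower border (Gpr162 intron 3), chr6:124809916-124809955, minus strand: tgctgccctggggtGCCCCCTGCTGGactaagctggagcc
Cd4 upper border (between Cd4 and Lag3), chr6:124853754-124853793, minus strand: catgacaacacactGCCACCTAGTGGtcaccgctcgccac
Cd4, farther up (Mlf2 start), chr6:124880885-124880924, plus strand: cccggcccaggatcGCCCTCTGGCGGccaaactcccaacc
Cd3 outer site on the upper side (above Cd3e), chr9:44831056-44831095, minus strand: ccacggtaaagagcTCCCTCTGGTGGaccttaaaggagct
Cd3 upper side (Mpzl2 intron 4), chr9:44856787-44856826, plus strand: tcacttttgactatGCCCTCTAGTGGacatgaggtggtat
Cd3g 3′ end, chr9:44777683-44777722, minus strand: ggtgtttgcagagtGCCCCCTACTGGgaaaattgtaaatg

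Part of the DP Rad21 peak in the first intron of Cd4 is shown because that intron holds the silencer. It is 300 bases of mm9 on the strand of Cd4, from 1931 to 2230 bp downstream of the annotated start. The capitals mark TGTGGT, the core letters that Runx factors bind, on either strand.
Cd4 intron 1, chr6:124836009-124836308, minus strand: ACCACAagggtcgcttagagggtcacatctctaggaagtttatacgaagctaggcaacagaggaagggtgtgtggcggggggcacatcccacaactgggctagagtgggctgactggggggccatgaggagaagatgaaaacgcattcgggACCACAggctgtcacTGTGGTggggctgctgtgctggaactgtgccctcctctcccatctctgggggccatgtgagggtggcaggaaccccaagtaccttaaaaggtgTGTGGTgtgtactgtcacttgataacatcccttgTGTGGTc

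Peaks called over the whole genome numbered 30488 for pre-B Rad21, 9701 for DN Rad21, 36743 for DP Rad21, 71080 for IL7-cultured pro-B CTCF and 42250 for pre-B CTCF. Their read depth is unknown. The deposited score was used only to rank a peak within its own list, and a percentile below is the percent of that list with a lower score. The lists end at different scores (57.72 for Rad21 in DP and 86.45 in DN), so a site without a peak was one not called in that library.

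Rad21 binding at the 3 loci was mostly a feature of the DP list. Of its peaks, 78 lay in the windows, against 16 of the pre-B and 8 of the DN list. Per megabase this was 163 in DP, where the whole list gave 13.9, 33.3 in pre-B (whole list 11.6) and 16.7 in DN (whole list 3.68). The peaks of the DP list covered 13.6% of the windows and 0.826% of chromosomes 1 to 19 and X, and 21.4% of the Cd8 window alone. The DP count was 42 at Cd8, 21 at Cd3 and 15 at Cd4, while the pre-B count was 2, 7 and 7 and the DN count 2, 3 and 3 in the same order. CTCF peaks numbered 39 in IL7-cultured pro-B cells (10 at Cd8, 11 at Cd3 and 18 at Cd4) and 22 in pre-B cells (4, 7 and 11). This was 81.3 and 45.8 per megabase, where the whole lists gave 26.9 and 16.0. The Cd8 window thus held the most Rad21 peaks in DP and the fewest CTCF peaks in both B-lineage lists, although at 56.7 and 22.7 per megabase these too were denser than the whole lists. Wider windows of 100 kb either side held 87 DP Rad21 peaks, so 9 lay just beyond the edges used.

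The DP and DN lists differ in length, so each Rad21 list was also limited to its best 9701 peaks, the length of the DN list. The windows then held 28 DP, 8 DN and 6 pre-B peaks. At Cd8 the counts were 16 in DP, 2 in DN and 0 in pre-B cells, and at Cd4 they were 8, 3 and 4. At Cd3 they came close together, with 4 in DP, 3 in DN and 2 in pre-B cells. The limit kept 26.4% of the whole DP list, and 4 of the 21 DP peaks at Cd3, 16 of 42 at Cd8 and 8 of 15 at Cd4.

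**Figure D1:**
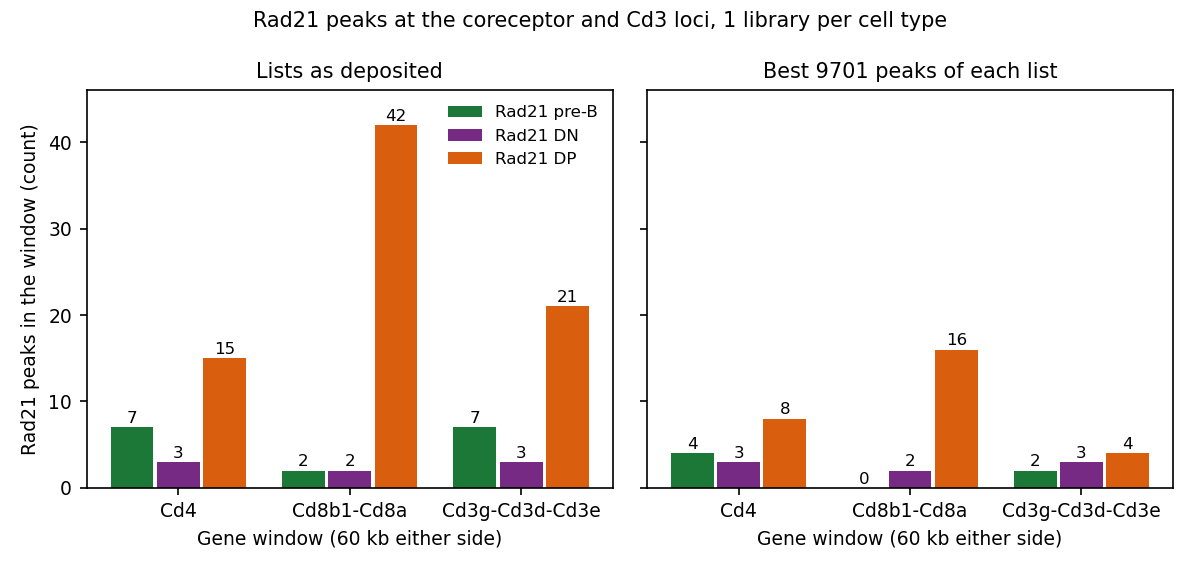
Number of Rad21 peaks (vertical axis, count) in each gene window for pre-B cells, DN and DP thymocytes, 1 library each. The left panel uses the lists as deposited and the right panel the best 9701 peaks of each list. DP bars are the tallest at each locus on the left (15, 42 and 21), and on the right the Cd8 bar stays tall (16) while the Cd3 bars are close (4 against 3 and 2).

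Merging the 3 Rad21 lists by overlap left 78 sites, and each one held a DP peak. Of these, 70 were called in DP but not in DN (89.7%, exact 95% Clopper-Pearson interval 80.8 to 95.5), where 58.6% of all merged sites were. The share called in DP but not in pre-B cells was 62 of 78 (79.5%, 68.8 to 87.8), above the 34.5% of all sites. Cd8 gave most of these, with 40 of 42 (95.2%, 83.8 to 99.4), and Cd3 gave 14 of 21 (66.7%, 43.0 to 85.4). At Cd4 the share was 8 of 15 (53.3%, 26.6 to 78.7), an interval that held the share of all sites, as did that for DP but not DN at Cd4 (80.0%, 51.9 to 95.7). No site was called in pre-B but not DP (0 of 78, which allows up to 4.62%, against 21.5% of all sites), and none in DN but not DP (1.14% of all sites). In all 3 libraries 8 sites were called (10.3%, 4.53 to 19.2, an interval that held the 18.7% of all sites), and the remaining 8 were called in pre-B and DP (10.3%, 4.53 to 19.2, against 25.1% of all sites). These intervals cover counting error alone and the neighbouring peaks of a locus are not independent of each other. With lists of equal length, 22 of 28 merged sites were called in DP but not in pre-B cells (78.6%, 59.0 to 91.7), where 23.5% of all sites were. Cd8 carried this share with 16 of 16, while Cd4 had 4 of 8 (interval 15.7 to 84.3%) and Cd3 2 of 4 (6.76 to 93.2%), both with intervals that held the share of all sites.

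Pooled over the windows, DP peaks also overlapped CTCF less often than the DP list as a whole. Of the 78, 52 had no B-lineage CTCF (66.7%, 55.1 to 76.9), against 30.8% of the whole DP list. Part of this number came from wide regions called as several peaks: with peaks less than 1000 bp apart joined, 21 of 47 lacked B-lineage CTCF (44.7%, 30.2 to 59.9), against 27.5% of the whole list joined in the same way. With single peaks, the share was 33 of 42 at Cd8 (78.6%, 63.2 to 89.7), 13 of 21 at Cd3 (61.9%, 38.4 to 81.9) and 6 of 15 at Cd4 (40.0%, 16.3 to 67.7), where the interval held the 30.8% of the whole list. In pre-B cells 15 of 16 Rad21 peaks overlapped CTCF (93.8%, whole list 92.4%), and in DN 8 of 8 did (whole list 98.4%). In the other direction, 15 of 22 pre-B CTCF peaks held pre-B Rad21 (68.2%, 45.1 to 86.1), and the interval held the 63.5% of the whole list. Of the 39 IL7-cultured pro-B CTCF peaks, 20 were also called in pre-B cells (51.3%, 34.8 to 67.6), an interval that held the 58.6% of the whole list. Because CTCF was read in other cells than DP thymocytes, DP sites bound by CTCF in thymocytes only would be counted here as lacking it.

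The sites called in all 5 libraries flanked the 6 genes and none lay within them. There were 8 such sites, 2 at Cd8, 3 at Cd4 and 3 at Cd3, and together they held every DN peak of the windows. At Cd8 they lay on both sides, 23.3 kb below Cd8b1 and 19.8 kb above Cd8a. The lower one fell in a long annotated transcript of Smyd1, a muscle histone methyltransferase, and had percentiles of 90.6 and 64.7 for CTCF in IL7-cultured pro-B and pre-B cells, and of 58.1 and 89.7 for Rad21 in DN and DP cells. Its pre-B Rad21 peak had rank 26772 of the 30488 of that list. The upper one, in intron 4 of Rmnd5a (a subunit of a ubiquitin ligase complex), had percentiles of 65.3 and 63.6 for CTCF and of 62.4, 81.8 and 91.6 for Rad21. Both were thus high in the DP list, while the lower one was near the foot of the pre-B Rad21 list. Their CTCF matches, printed above, were on opposite strands and pointed to each other across Cd8b1 and Cd8a, with the plus strand of the consensus taken to point to lower coordinates. A CTCF site farther up, in intron 2 of Rmnd5a (chr6:71373004-71373451), also pointed to the genes and held DP but neither pre-B nor DN Rad21.

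**Figure D2:**
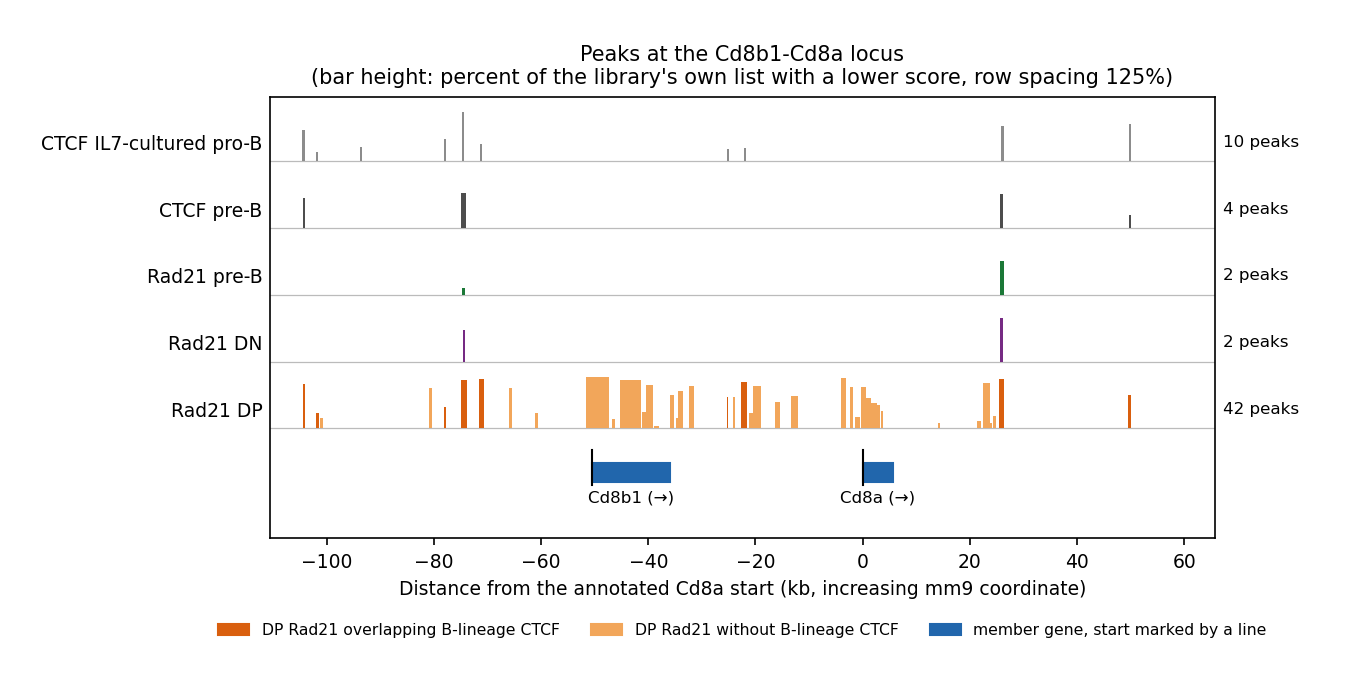
Peaks of the 5 libraries across the Cd8b1 and Cd8a window, with distance from the annotated Cd8a start in kb on the horizontal axis and 1 row per library. Bar height is the percent of the library's own list with a lower score. Pre-B and DN Rad21 show 2 peaks each at the same 2 border sites, and 34 of the 42 DP peaks lie between these borders, 31 of them in the lighter colour for no B-lineage CTCF.

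Around Cd4 the sites called in all 5 libraries lay in intron 3 of the neighbour Gpr162, 4.33 kb beyond the 3′ end of Cd4, between Cd4 and Lag3 (an inhibitory receptor for MHC class II), and at the start of Mlf2. The Gpr162 site had CTCF percentiles of 90.7 and 93.7 and Rad21 percentiles of 93.0, 23.0 and 96.9 in pre-B, DN and DP cells. The site between Cd4 and Lag3 had CTCF percentiles of 99.3 and 97.8, among the best of both lists, and Rad21 percentiles of 91.3, 38.9 and 98.1. The Mlf2 site had CTCF percentiles of 98.5 and 89.8 and Rad21 percentiles of 68.8, 46.7 and 98.7. The 3 sites were strong in the DP list, and the DN percentiles are those of a shorter list that ends at a higher score. The Gpr162 and Mlf2 matches pointed toward Cd4 and faced each other, whereas the nearest match above Cd4, beside Lag3, pointed away from the gene. Below Gpr162 another 4 sites held CTCF of both B-lineage libraries with pre-B and DP but no DN Rad21. They lay in introns 1 and 9 of Leprel2 (a collagen prolyl hydroxylase), within 1 kb of the starts of Usp5 (a deubiquitinase) and Cdca3, and in exon 2 of Spsb2.

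Around the Cd3 genes the nearest such sites lay 2.18 kb below Cd3g and 5.13 kb above Cd3e, with another 13.2 kb above Cd3e. The lower one had CTCF percentiles of 95.2 and 96.1 and Rad21 percentiles of 75.3, 83.1 and 93.4 in pre-B, DN and DP cells. The one 5.13 kb above Cd3e had lower CTCF percentiles of 56.9 and 33.6 and Rad21 percentiles of 23.1, 30.7 and 95.6, so it was near the top of the DP list. The outer one had CTCF percentiles of 90.5 and 73.0 and Rad21 percentiles of 93.2, 88.4 and 96.9. The lower and the nearer upper site held no consensus match within 2 mismatches, the outer one pointed away from the genes, and the Mpzl2 site 38.7 kb above Cd3e, which lacked DN Rad21, pointed to them. The match at the 3′ end of Cd3g, a site that also lacked DN Rad21, pointed to higher coordinates. It thus faced the Mpzl2 match across the Cd3 genes. Convergent matches at the nearest borders were seen at Cd8 only, and the direction of the nearest Cd3 borders could not be read.

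Between these borders, the gene clusters with 1 kb on either side held next to no peaks outside the DP list. In the 58.3 kb from Cd8b1 to Cd8a there were 25 DP Rad21 peaks, which covered 47.1% of the sequence, and 0 pre-B Rad21, 0 DN Rad21 and 0 pre-B CTCF peaks. Over the 25.5 kb of Cd4 there were 5 DP Rad21 peaks, covering 18.5%, and again 0 of those other 3 lists. Over the 42.0 kb from Cd3g to Cd3e there were 11 DP peaks (17.6%), 1 pre-B Rad21 and 1 pre-B CTCF peak at the 3′ end of Cd3g, and 0 DN peaks. IL7-cultured pro-B cells had 2 CTCF peaks in each cluster. Of the DP peaks in the clusters, 23 of 25 at Cd8, 4 of 5 at Cd4 and 9 of 11 at Cd3 lacked B-lineage CTCF.

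At Cd4, the DP list marked the start, intron 1 and the upstream interval, and its strongest peaks without B-lineage CTCF were not at the start itself. A peak at chr6:124837751-124838521 (percentile 17.5) covered the start, and another at chr6:124838535-124839057 (38.3) lay 296 bp before it. In intron 1, an intron of 8386 bp that is known to hold the silencer, a peak of 1742 bp (chr6:124834989-124836730) lay 1509 bp downstream of the start, at percentile 77.4. By width it had rank 70 of the 11328 DP peaks without B-lineage CTCF. This peak contained TGTGGT 6 times on either strand, between 1936 and 2421 bp downstream of the start, and 5 of these matches are in the printed sequence. As many were found in 119 of the 11328 regions of the same length at the middle of DP peaks without B-lineage CTCF (1.05%), a comparison made after the letters had been seen. Neither the DN nor the pre-B list had a Rad21 peak there, and neither B-lineage library a CTCF peak.

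Upstream of Cd4, a DP peak of 1074 bp at chr6:124849877-124850950 lay 11638 bp before the start, in the interval before Lag3 where the proximal enhancer is known to lie, at percentile 79.5. A further DP peak covered exons 2 and 3 and the end of intron 1 (chr6:124829296-124830045, percentile 78.9). Just beyond the 3′ end, the start of Gpr162 held the widest DP peak of the Cd4 window, 1967 bp at percentile 89.3, over 2 IL7-cultured pro-B CTCF peaks at percentiles 41.0 and 41.3. The start of Tpi1, a glycolytic enzyme, held the only other DP peak of the window without B-lineage CTCF, at percentile 51.4. IL7-cultured pro-B cells also had 2 weak CTCF peaks near Cd4 with no Rad21 in any library, in intron 3 (percentile 27.3) and 7.63 kb upstream (16.2).

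**Figure D3:**
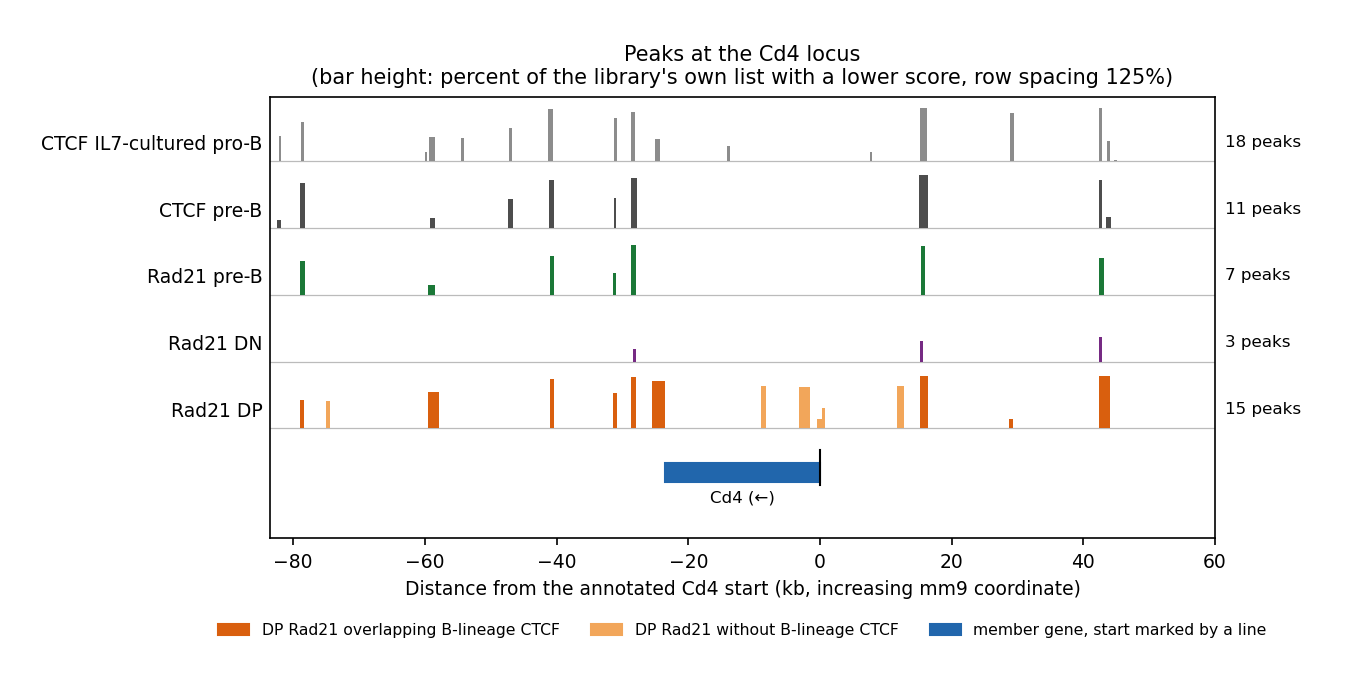
Peaks of the 5 libraries across the Cd4 window, with distance from the annotated Cd4 start in kb on the horizontal axis (Cd4 is read to the left) and 1 row per library. Bar height is the percent of the library's own list with a lower score. The 3 DN peaks sit at sites shared by all libraries outside the gene, and the lighter DP bars, without B-lineage CTCF, lie at the start, in intron 1, at exon 2, upstream and, far to the left, at the start of Tpi1.

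At Cd8, DP Rad21 formed a dense stretch over Cd8b1 and a second group around Cd8a. A peak of 4475 bp (chr6:71271705-71276179) covered the start and first intron of Cd8b1, which encodes the beta chain of the CD8 dimer, at percentile 96.3. Of the 11328 DP peaks without B-lineage CTCF it had rank 23 by score and rank 2 by width. The same peak covers the start of that Smyd1 transcript, which is read the other way, so these starts cannot be told apart. A second wide peak of 3777 bp (chr6:71278223-71281999, percentile 90.4), which had rank 3 by width, covered the exon between introns 2 and 3 and parts of both introns. Of the 41 gaps between neighbouring DP peaks of the window, 23 were under 1000 bp and 8 under 100 bp. Joining peaks less than 1000 bp apart turned the 42 peaks into 19 stretches, and the longest of these joined 6 peaks into 13659 bp over Cd8b1.

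In the interval between Cd8b1 and Cd8a, where several of the Cd8 enhancers are known to lie, 14 DP peaks lay wholly between the genes, 12 of them without B-lineage CTCF. The strongest of these (chr6:71319290-71320368) lay 3053 bp upstream of the Cd8a start at percentile 93.5, and had rank 47 by score of the DP peaks without B-lineage CTCF. Farther from Cd8a, peaks at chr6:71291016-71291914 (79.7) and chr6:71302901-71304393 (79.9) also lacked CTCF. A peak at chr6:71300734-71301746 (87.2) overlapped a CTCF peak called in IL7-cultured pro-B cells only, at percentile 23.6 there. The start of Cd8a, the alpha chain, held a peak at chr6:71323026-71324079 (76.6), and 4 more followed within the gene to its last exon with percentiles of 57.1, 47.5, 44.7 and 32.4. The percentile thus fell with distance into Cd8a. Beyond the gene, a peak in intron 7 of Rmnd5a (chr6:71345906-71347209, 84.7) lay next to the upper border.

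At Cd3, the DP peaks without B-lineage CTCF were narrower and of lower rank than at Cd8 (median width 607 against 738 bp, median percentile 38.7 against 48.9). Those with it were of lower rank (74.2 against 82.5) but not narrower (580 against 517 bp). The chains gamma and delta are read apart from starts that lie 1362 bp from each other, and 4 DP peaks there spanned 3422 bp (chr9:44787672-44791093). The peak over the Cd3g start had percentile 57.6, the one over the Cd3d start 39.3, and the ones in the first introns of Cd3g and Cd3d 27.2 and 21.5. The start of Cd3e held the widest peak of the window, 1418 bp at chr9:44816836-44818253 (62.3), with a second in intron 2 (57.5). A peak over the last exon of Cd3d (chr9:44794330-44795107) had percentile 49.8. None of these had B-lineage CTCF, and the highest percentile of the 13 such peaks at Cd3 was 62.3, against 79.5 at Cd4 and 96.3 at Cd8. The site at the 3′ end of Cd3g, with CTCF in both B-lineage lists, was weak in the pre-B Rad21 list (13.2) and higher in DP (71.6). The start of Atp5l, a subunit of ATP synthase at the edge of the window, held the only Rad21 site of the 3 windows called in pre-B and DP cells without an overlapping CTCF peak. A pre-B CTCF peak lay beside it without overlap (chr9:44729703-44730002).

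**Figure D4:**
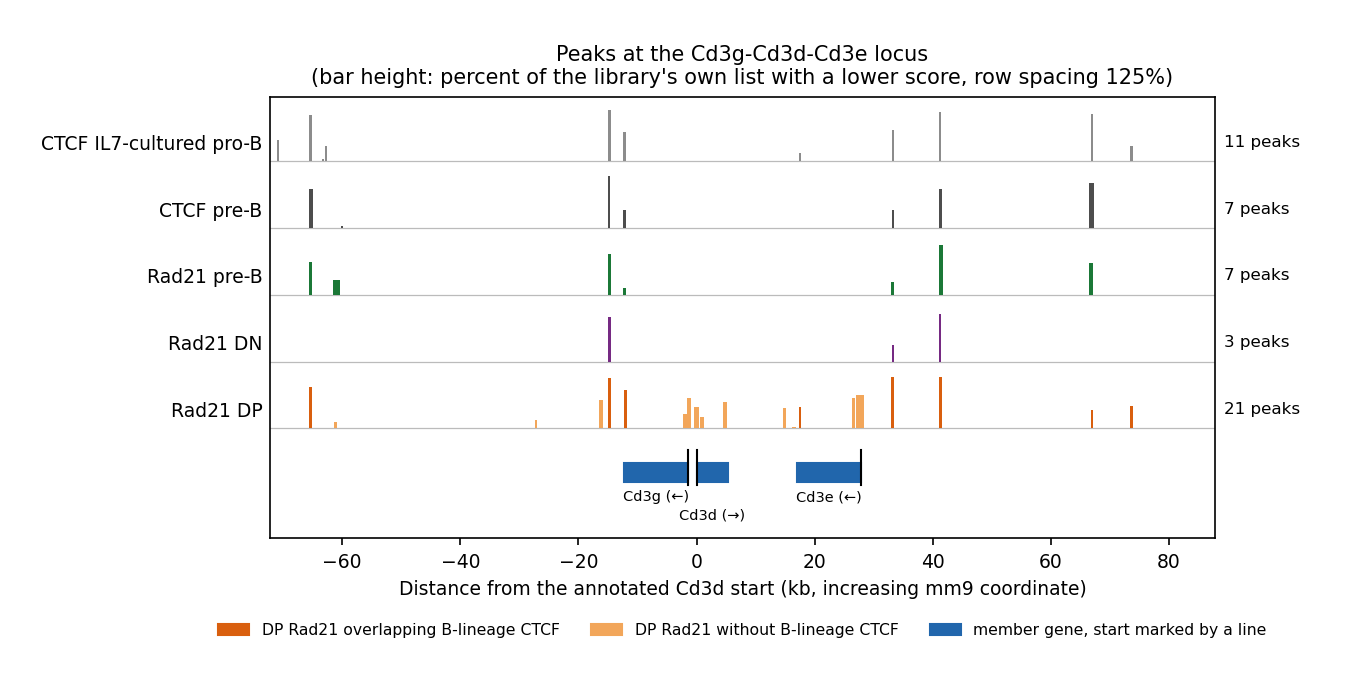
Peaks of the 5 libraries across the Cd3g, Cd3d and Cd3e window, with distance from the annotated Cd3d start in kb on the horizontal axis and 1 row per library. Bar height is the percent of the library's own list with a lower score. The DP peaks over the genes are short light bars (no B-lineage CTCF) and the tallest DP bars are the CTCF sites on either side, where the 3 DN peaks also lie.

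DP Rad21 peaks lay within 1 kb of the annotated start of 6 of 6 genes, where 29.5% of the 22350 genes on chromosomes 1 to 19 and X had one. Pre-B Rad21 was called at 0 of 6 starts (16.9% of genes), DN Rad21 at 0 of 6 (670 of the 22350 genes), pre-B CTCF at 0 of 6 (22.0%) and IL7-cultured pro-B CTCF at 0 of 6 (33.2%). A start with DP but without pre-B Rad21 was seen at 6 of 6 genes (16.5%). With each Rad21 list limited to its best 9701 peaks, DP Rad21 remained at 2 of 6 starts (Cd8b1 and Cd8a, 6.04% of genes). Pre-B Rad21 then stood at 0 of 6 (3.41% of genes), and DN Rad21 at 0 of 6 (670 of the 22350 genes, as before). With 6 genes and start peaks this rare, little can be read from their absence in pre-B and DN cells. The same holds at the 16.9% of the full pre-B list. The nearest pre-B Rad21 peak lay 15.3 kb from the Cd4 start, 23.6 kb from Cd8b1, 25.6 kb from Cd8a, 10.7 kb from Cd3g, 12018 bp from Cd3d and 5.18 kb from Cd3e. Every window held at least 1 peak of every library, while 60.7% of all genes had a DN Rad21, 81.6% a pre-B Rad21, 79.7% a DP Rad21, 86.1% a pre-B CTCF and 92.0% an IL7-cultured pro-B CTCF peak within the same reach, so little can be read from it.

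Of 13 other genes of T-cell receptor signalling, 12 held DP Rad21 within 1 kb of their start (29.5% of all genes). Among them were Cd247 (the zeta chain), the kinases Lck, Zap70 and Fyn, and the adaptors Lat and Lcp2. Cd28 (a costimulatory receptor) did not hold it. Pre-B Rad21 lay at 3 of the 13 (the phosphatase Ptprc, the kinase Csk and the adhesion receptor Cd2), DN Rad21 at 0, pre-B CTCF at 1 and IL7-cultured pro-B CTCF at 4. DP but no pre-B Rad21 was called at 9 of 13 (16.5% of all genes). Of 5 B-cell genes, pre-B but no DP Rad21 was called at the start of 2 (3.86% of all genes). These were the receptor chains Cd79a and Cd79b. DP Rad21 was called at 0 of the 5 (29.5% of all genes), from which little can be read with so few genes. Ms4a1, Cd22 and Blnk had a start peak in no Rad21 list.

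Counted within 60 kb of each start, DP Rad21 peaks without B-lineage CTCF numbered 29 at Cd8a, the most of the 22350 genes, and 28 at Cd8b1, where the median over genes was 0 and the 99th percentile was 8. They numbered 13 at Cd3g, 12 at Cd3d and at Cd3e, and 5 at Cd4, at best rank 663 of all genes. The same count in the pre-B list was 1 at Cd3g and 0 at the other 5. The genes of a cluster share most of these peaks, so they are not separate observations. The count depends on how a wide region is broken up: with peaks less than 1000 bp apart joined, Cd8a had 8 and 39 genes had more, and with scores of at least 100 it had 19 and 2 genes had more. By summed length of these peaks, Cd8a came first with 29.6 kb, followed by Cd8b1 and Smyd1 with 28.9 kb each, and the next gene of another locus was Tcf7 (a T-lineage factor, named after its value was seen) with 22503 bp. Cd3g had 8.21 kb, Cd3d and Cd3e 7.79 kb each and Cd4 4.86 kb, where the 99th percentile of genes was 5479 bp. Over joined peaks the order at the top changed, with Cd8b1 and Smyd1 at 29.4 kb and Cd8a at 27.6 kb, so 2 genes, both of the Cd8 window, had more than Cd8a.

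Peaks of the windows had higher median percentiles than all DP peaks of the same class, with or without B-lineage CTCF. The 26 with B-lineage CTCF had a median percentile of 79.7, where all such DP peaks had 60.2, and the 52 without had 48.2, where all such had 31.3. Their median widths were 596 and 674 bp, against 537 and 540 bp over the list. In a DP list as long as the DN list, 14 of the 52 without CTCF were kept (26.9%), where 6.95% of all such DP peaks were, and 14 of the 26 with CTCF (53.8%, 35.1% of all such). Those kept without CTCF were 11 at Cd8, 3 at Cd4 and 0 at Cd3. In a DP list as long as the pre-B list, 42 of the 52 were kept, and 8066 of all 11328 such DP peaks.

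**Figure D5:**
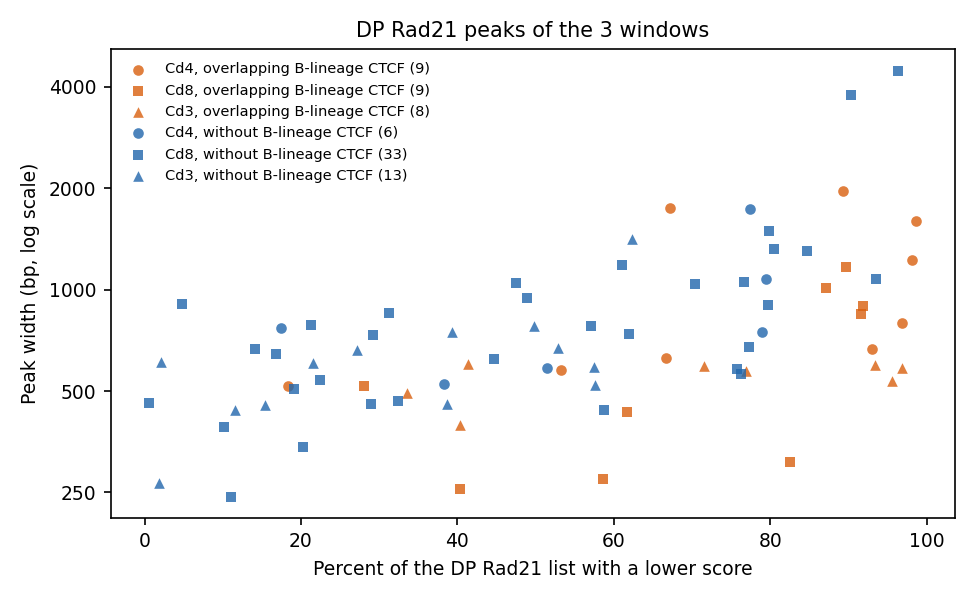
Width in bp (vertical, log scale) of the 78 DP Rad21 peaks of the windows against the percent of the DP list with a lower score (horizontal), with shape for the locus and colour for overlap with B-lineage CTCF. The widest peaks, 4475 and 3777 bp, are from Cd8 without CTCF, and no Cd3 peak without CTCF lies above 62.3 on the horizontal axis.

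The letters of the peaks followed the CTCF calls. Of 41 merged B-lineage CTCF sites in the windows, 21 held the consensus within 2 mismatches (51.2%, 35.1 to 67.1), where 39.6% of all CTCF sites did and 3 of the 41 neighbouring stretches 2000 bp away did (7.32%). Among DP Rad21 peaks, 17 of the 26 with CTCF held it (65.4%, 49.7% of all such) and 5 of the 52 without (9.62%, 3.20 to 21.0, 9.98% of all such). In the central 300 bp of the 52 peaks without CTCF, searched on both strands, the Runx letters TGTGGT were in 13 (25.0%, against 26.9% of all such DP peaks), the E protein letters CAGCTG in 32.7% (26.9%), the Tcf7 and Lef1 letters CTTTGA in 21.2% (19.7%), the Ets letters AGGAAG in 36.5% (46.8%) and the Gata letters AGATAA in 9.62% (10.8%). Each exact interval held the share of the whole set. With 52 peaks, no difference in these letters from the whole set was detectable.

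The 250 bases before the starts of Cd3d and Cd3e, both under a DP Rad21 peak, are shown because they were the only member promoters with the Ets letters, marked in capitals on either strand.
Cd3d, chr9:44789626-44789875, plus strand: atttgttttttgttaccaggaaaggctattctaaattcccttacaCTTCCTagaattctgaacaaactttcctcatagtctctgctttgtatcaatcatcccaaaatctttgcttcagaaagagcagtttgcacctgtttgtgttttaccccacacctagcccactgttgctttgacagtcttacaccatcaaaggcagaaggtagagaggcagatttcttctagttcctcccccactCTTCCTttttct
Cd3e, chr9:44817674-44817923, minus strand: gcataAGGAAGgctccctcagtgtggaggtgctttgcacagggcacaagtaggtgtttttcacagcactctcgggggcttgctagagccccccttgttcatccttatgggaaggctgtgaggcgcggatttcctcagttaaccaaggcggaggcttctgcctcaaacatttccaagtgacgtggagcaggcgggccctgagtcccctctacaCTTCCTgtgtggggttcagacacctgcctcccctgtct
Each held them 2 times, and the 2 of 6 member promoters with them are near the 29.0% of all promoters of that length. TGTGGT was in 0 of the 6 promoters (12.7% of all promoters). CTTTGA was in the promoters of Cd8b1 and Cd3d (13.4% of all) and AGATAA in that of Cd3g (9.29%). A match describes letters only, and no binding of these factors was measured.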

How the data were processed

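Peaks of 5 ChIP-seq libraries were analysed, with 1 library per condition and no replicates. According to the methods, the authors trimmed adapters, dropped duplicate reads, mapped the rest to mm9 with Bowtie (allowing up to 3 places per read) and called peaks against input with MACS 1.4.2. The deposited score of each peak is the value MACS derives from its p-value. It grows with depth, which is unknown, so it was used to rank within 1 list. The alternative with scores of at least 100 put the same limit on every list, which need not be equally strict in each.

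Gene positions came from GENCODE on NCBIM37 (mm9). Peaks of the windows were merged across libraries at 1 bp of overlap, and shares carry exact Clopper-Pearson intervals at 95%, which cover counting error only. Backgrounds are the same counts over all peaks or over all protein-coding genes. The named genes are the 6 members, genes in, at the start of or nearest to a peak of the windows, and 18 genes of the T-cell receptor and B-cell lists, of which some genes are not reported here. The members and lists were chosen with earlier results of these data known. Tcf7 was named after its value was seen. Alternatives were scores of at least 100, lists of equal length, windows of 30 and 100 kb, peak midpoints, 50% overlap and 1 or 3 mismatches. Joined peaks, a DP list of pre-B length, covered length and the ranking of genes around Cd8a were added after seeing the data. Overlap and motif searches were tested on simulated data. The tools were samtools 1.23.1, matplotlib 3.10.9, pysam 0.24.0, scipy 1.17.1 and numpy 2.4.6 under Python 3.11.15.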

Additional observations from a re-analysis of the deposited data

How the results depend on the processing

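Each condition had 1 library, so nothing here speaks to the spread between animals, and depth is unknown. No paired analysis was possible because no test was run and the labels give no replicate numbers. Counting by midpoint or at 50% overlap moved no value by over 1.5 times, or outside its interval. With lists of equal length per antibody, the windows held 28 DP Rad21 peaks (78 as deposited), 6 pre-B Rad21 peaks (16) and 24 IL7-cultured pro-B CTCF peaks (39). Of the DP peaks 16 lacked B-lineage CTCF (52), or 14 with the CTCF lists at full length, merged sites called in DP but not DN fell to 20 (70), in DP but not pre-B to 22 (62) and in all 3 libraries to 5 (8), and 27.3% of pre-B CTCF peaks held pre-B Rad21 (68.2%). A DP peak lay at 2 of the 6 starts (6). With DP peaks less than 1000 bp apart joined, there were 47 DP peaks, 21 without B-lineage CTCF and 55.3% with it (33.3%), with 39 sites not called in DN and 31 not in pre-B cells. With scores of at least 100, 34 DP peaks lacked B-lineage CTCF and 1 merged site was called in pre-B but not DP (0), as with windows of 100 kb, which also gave 1. Windows of 30 kb held 21 IL7-cultured pro-B CTCF, 12 pre-B CTCF (22) and 10 pre-B Rad21 peaks. Genes with more DP Rad21 peaks without B-lineage CTCF than Cd8a numbered 0 as deposited, 2 at scores of at least 100, 2 with the DP list at pre-B length, 2 at DN length and 39 with joined peaks, but 0 by covered length, and 2 by covered length of joined peaks. The consensus was found in 9.76% of CTCF sites at 1 mismatch and 95.1% at 3, against 51.2% at 2. At 3 mismatches 41.5% of stretches 2000 bp away matched too.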
